A study of Sus scrofa with 6 samples.

Results

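The calpain system of pig muscle was described from 29 transcripts of 7 genes, out of 83119 transcripts and 35675 genes in the deposited table. The rows were those whose gene name was CAPN1, CAPN2, CAPN3, CAPN5, CAPN7, CAPNS1 or CAST. CAPN3 and CAST were chosen by their FPKM values in these pigs, because single transcripts differed between the groups while the gene sums did not. Their group differences are therefore given below as values, with no test, and the other 5 genes were tested. The RNA was from longissimus dorsi (LD), a back muscle, of 6 castrated male Laiwu pigs, a fatty breed of North China. The S-H group, with extremely high intramuscular fat (IMF) content, held LW63, LW70 and LW119. The S-L group, with extremely low IMF content, held LW82, LW88 and LW90. The labels name no treatment, and each pig gave 1 strand-specific library of total RNA without ribosomal RNA.

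Calpains are proteases of the cytosol that are switched on by calcium and cut their substrates at a limited number of sites. CAPN1 and CAPN2 encode the large catalytic subunits of the classical calpains, each of which pairs with the small regulatory subunit encoded by CAPNS1, and CAST encodes calpastatin, their specific inhibitor. CAPN3 encodes the calpain of skeletal muscle, which is anchored in the sarcomere by titin and is lost in a form of limb-girdle muscular dystrophy. CAPN5 and CAPN7 encode calpains without the calcium-binding domain that pairs with the small subunit. After slaughter, calpains cut proteins of the myofibril, and calpastatin limits this step, so both are studied for meat tenderness.

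The values are FPKM, fragments scaled to transcript length and to library size, and a gene's level is the sum over its transcripts. Summed FPKM per library ran from 638536 in LW119 to 846661 in LW82, and the number of reads behind a single value is unknown. Across 18894 tested genes, limma called 267 by the thresholds of the study (p under 0.01 before adjustment, and a log2 fold change of 1 or more in either direction), with 164 higher in S-H (0.868%) and 103 lower (0.545%). When values were divided by median-ratio size factors, the split was 110 higher and 156 lower, and the median difference over all genes on the log2 scale moved from 0.18 to 0.01. The muscle fibre markers ACTA1, CKM, DES and MYBPC1 summed to between 5063 and 9351 FPKM per pig. Adipocyte markers, 7 of 7 in the table and none at 0, summed to between 444.4 and 1294 FPKM in S-H and between 255 and 376 FPKM in S-L, and 5 of the 7 were called higher in S-H. The fast-fibre markers, of which 6 of 9 were in the table, summed to between 11778 and 17844 FPKM in S-H and between 13769 and 30104 FPKM in S-L.

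The order of the 7 gene levels was nearly the same in every pig. CAPN3 was the highest at 126.3 ± 33.4 FPKM (SD, n = 6). CAST, the inhibitor, followed at 37.0 ± 4.07 FPKM, and then came CAPN2 at 26.5 ± 7.93 FPKM and CAPN1 at 13.8 ± 2.58 FPKM (SD, n = 6 each). The small subunit CAPNS1 stood at 8.33 ± 2.01 FPKM, CAPN7 at 4.25 ± 0.443 FPKM and CAPN5 at 1.34 ± 0.337 FPKM (SD, n = 6 each). The lowest CAPN3 pig, at 76.3 FPKM, was above the highest CAST pig, at 44.8 FPKM, so that these ranges did not touch. The ranges of CAST and CAPN2 overlapped, and CAST was the higher of the pair in 5 of 6 pigs, the exception being LW119. CAPN2 was above CAPN1 in 6 of 6 pigs and CAPN1 was above CAPNS1 in 6 of 6 pigs, although the ranges over pigs overlapped for both pairs. CAPNS1, CAPN7 and CAPN5 had ranges apart from each other.

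**Figure D1:**
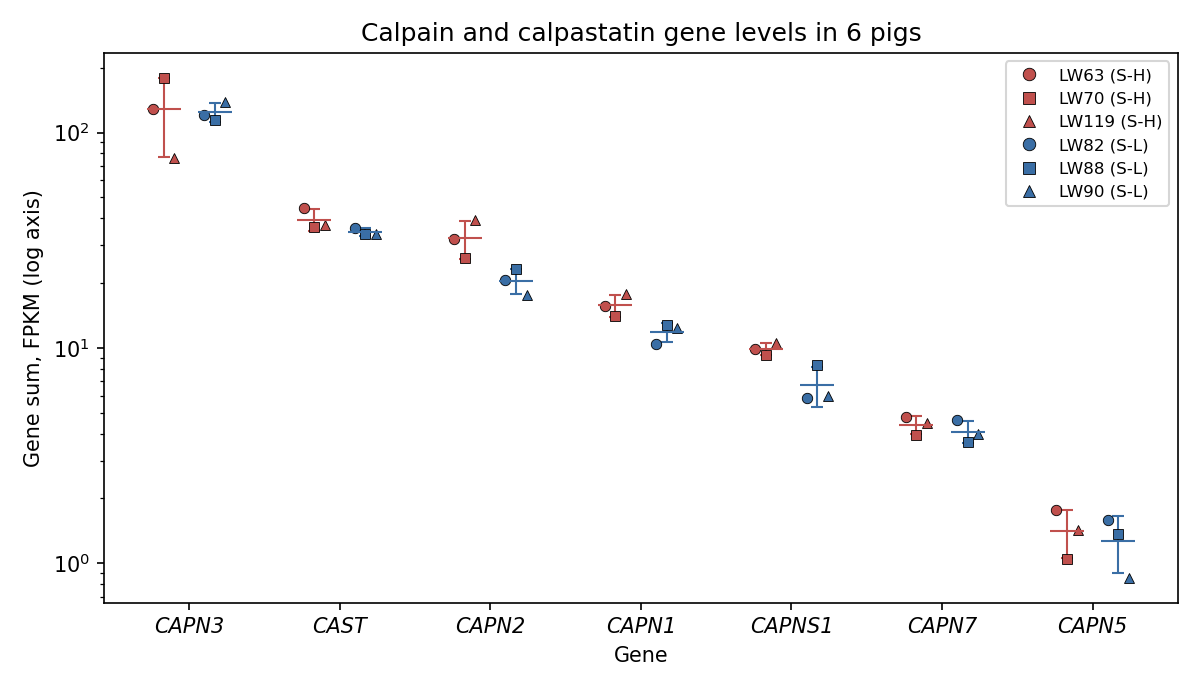
Gene sums in FPKM on a log axis for the 7 genes, with 1 point per pig, a horizontal line at the group mean and bars of 1 SD (n = 3). CAPN3 lies highest and CAPN5 lowest, and the S-H and S-L points are apart for CAPN2, CAPN1, CAPNS1 and CAST but interleave for the other 3 genes.

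The classical calpain subunits were the genes with the largest differences among the 5 tested. CAPN2 had 32.2 FPKM in LW63, 26.1 FPKM in LW70 and 39.1 FPKM in LW119, against 20.8 FPKM in LW82, 23.2 FPKM in LW88 and 17.6 FPKM in LW90. The lowest S-H pig, LW70, exceeded the highest S-L pig, LW88. The group means were 32.5 ± 6.52 and 20.5 ± 2.78 FPKM (SD, n = 3 each), a ratio of 1.58. The log2 fold change on log2(FPKM + 0.1) was 0.65 (standard error 0.24), and the adjusted p in limma (Benjamini-Hochberg, over all genes) was 0.629 (0.0253 unadjusted). In this bulk tissue, a change in the number of cells that carry a transcript and a change in its amount per cell cannot be told apart.

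CAPNS1, the partner of both classical calpains, showed the same arrangement of the groups. It had 9.92, 9.31 and 10.5 FPKM in LW63, LW70 and LW119 of the S-H group, and 5.85, 8.36 and 5.98 FPKM in LW82, LW88 and LW90 of the S-L group. The lowest S-H pig stood above the highest S-L pig, LW88. Its log2 fold change was 0.57 with a standard error of 0.24, and the adjusted p in limma was 0.665 (0.0424 unadjusted). The single CAPNS1 transcript, on chromosome 6 from 45511339 to 45520859 of Sscrofa11.1, lies under an assembled transcript of COX7A1, a subunit of cytochrome c oxidase, which shares 9376 bases of its span and averages 100.8 FPKM. The part that shared reads may have in the CAPNS1 values was not tested.

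CAPN1 had 15.7, 14.0 and 17.7 FPKM in LW63, LW70 and LW119 and 10.4, 12.7 and 12.4 FPKM in LW82, LW88 and LW90. Here too the groups did not overlap on FPKM, with means of 15.8 ± 1.88 and 11.9 ± 1.24 FPKM (SD, n = 3 each). Divided by size factors, LW90 stood above LW63 and LW70, so the groups overlapped. The log2 fold change of CAPN1 on FPKM was 0.41 with a standard error of 0.22, and the adjusted p in limma was 0.695 (0.101 unadjusted). The exact two-sided permutation test gave p = 0.10 for CAPN1, CAPN2 and CAPNS1, the smallest p that 3 pigs against 3 allow.

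CAPN7 and CAPN5 overlapped between the groups. CAPN7 ran from 3.95 to 4.79 FPKM in S-H and from 3.67 to 4.62 FPKM in S-L, with a log2 fold change of 0.11 (standard error 0.24, adjusted p of 0.930 from limma). CAPN5 ran from 1.05 to 1.76 FPKM in S-H and from 0.858 to 1.59 FPKM in S-L, with a log2 fold change of 0.15 (standard error 0.34, adjusted p of 0.932 from limma). Both genes are represented by 1 transcript each, CAPN7 on chromosome 13 from 2452224 to 2504573 and CAPN5 on chromosome 9 from 11207835 to 11246711 of Sscrofa11.1.

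None of the 5 tested genes passed the thresholds, where 1.41% of all tested genes did. An unadjusted p below 0.05 in limma was found for 1404 of all 18894 tested genes and for 2 of the 5, CAPN2 and CAPNS1. That count fell to 0 with size factors, without the variance trend (unadjusted p of 0.0529 for CAPN2 and 0.0703 for CAPNS1) or when LW63, LW119, LW82 or LW90 was left out (unadjusted p from 0.0596 to 0.129), and to 1 without LW70, and it rose to 3 with no minimum level (CAPN1, unadjusted p of 0.0496). Of the 5, 3 had non-overlapping groups on FPKM with S-H higher, where 11.2% of all tested genes did and 2.51% had S-H lower. The groups of CAPN1 overlapped after division by size factors. In limma on size-factor values, CAPN2 kept a log2 fold change of 0.45 (unadjusted p of 0.0586), CAPNS1 of 0.38 (p of 0.137) and CAPN1 of 0.21 (p of 0.365). The signs of CAPN5 and CAPN7 turned under the same scaling, to -0.03 and -0.08. Measured against the median of all tested genes, which was 0.18 on the FPKM scale, CAPN2 was higher by 0.46, CAPNS1 by 0.39 and CAPN1 by 0.22 on the log2 scale. The adipocyte marker sums given above were also apart between the groups. The fast-fibre sums overlapped, but 6 of 6 fast-fibre markers had a negative log2 fold change (median -0.54), and the groups were apart for 1 of them. For the slow-fibre markers 7 of 7 were positive (median 0.43) with the groups apart for 3, the sums overlapped at 9180 to 10837 FPKM in S-H and 6159 to 9547 FPKM in S-L, and neither list held a called gene. The part of these markers in the calpain differences was not tested.

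**Figure D2:**
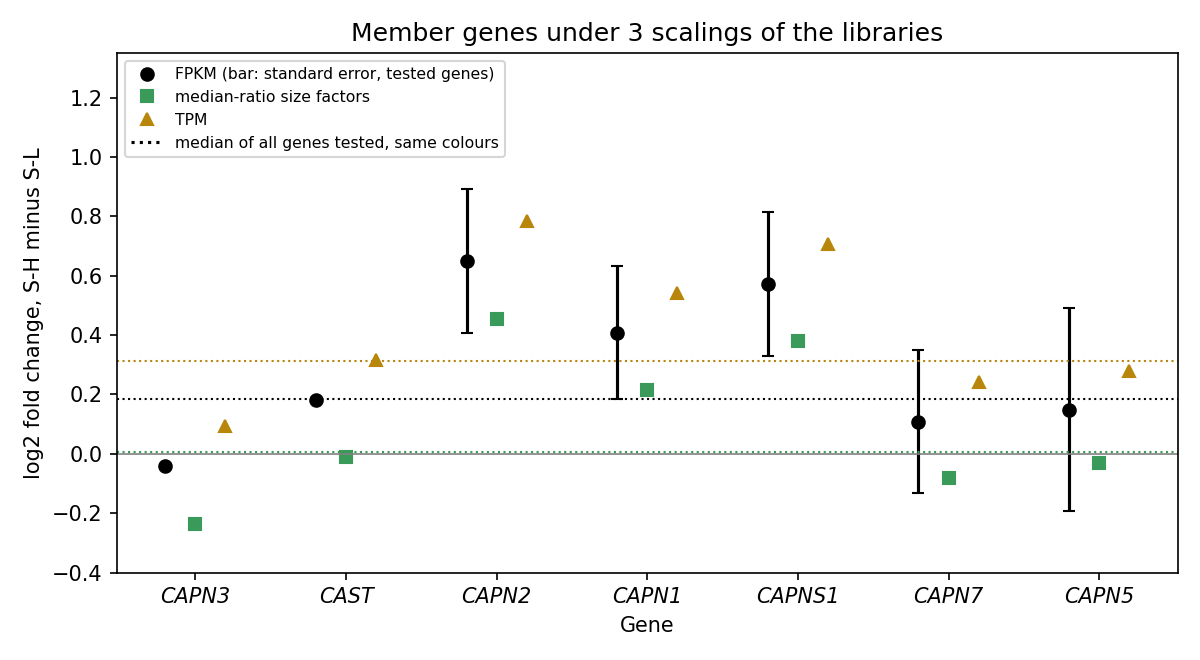
Log2 fold change (S-H minus S-L) of each gene on log2(value + 0.1) with FPKM, median-ratio size factors and TPM, where bars are standard errors of the 5 tested genes and dotted lines mark the median of all genes tested in each scaling. CAPN2, CAPNS1 and CAPN1 lie above the dotted line of the same colour in each scaling, at 0.65, 0.57 and 0.41 on FPKM, while the signs of CAST, CAPN5 and CAPN7 turn below 0 with size factors and that of CAPN3 turns above 0 with TPM.

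CAST, the calpastatin gene, lies on chromosome 2 from 103255630 to 103378623 of the Sscrofa11.1 assembly and has 5 Ensembl transcripts in the table. Its gene sum was 44.8 FPKM in LW63, 36.4 FPKM in LW70 and 37.1 FPKM in LW119, against 36.1 FPKM in LW82, 33.9 FPKM in LW88 and 33.7 FPKM in LW90. On FPKM the groups just missed each other, since LW70 and LW82 differed by less than the spread within either group. Groups apart with S-H higher were found for 11.2% of all tested genes. Divided by size factors, LW90 stood highest and LW119 lowest, so the groups overlapped. The ratio of the group means on FPKM was 1.14. The log2 difference of CAST was 0.18, the same to 2 decimals as the median of all tested genes. The leading transcript behind these similar sums differed between the groups.

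CAST-201 carried the gene in the S-H pigs, with 26.8 FPKM in LW63, 20.998 FPKM in LW70 and 15.8 FPKM in LW119. In the S-L pigs it had 0.570 FPKM in LW82, 0.607 FPKM in LW88 and 0.466 FPKM in LW90. As a share of the CAST sum, CAST-201 took 59.7%, 57.8% and 42.5% in the S-H pigs and 1.58%, 1.79% and 1.38% in the S-L pigs. CAST-202 showed the opposite, with 3.19, 2.89 and 5.06 FPKM in LW63, LW70 and LW119, and 20.6, 20.8 and 19.0 FPKM in LW82, LW88 and LW90. Its share was 9.57% ± 3.56 in S-H and 58.3% ± 2.66 in S-L (SD, n = 3 each). On log2(FPKM + 0.1) the difference S-H minus S-L was 5.01 for CAST-201 and -2.45 for CAST-202. Among all tested transcripts, 0.751% passed the thresholds with S-H higher and 0.496% with S-H lower. CAST was chosen for such transcript differences, so these percentages are no test of CAST-201 or CAST-202.

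CAST-201 and CAST-202 together differed less between the groups than each alone. The sum of both was 30.0 FPKM in LW63, 23.9 FPKM in LW70 and 20.8 FPKM in LW119, and 21.1, 21.4 and 19.5 FPKM in LW82, LW88 and LW90. LW119 lay within the range of the S-L pigs, while LW63 was the highest. CAST-201 made up between 75.7% and 89.4% of the pair in S-H and between 2.39% and 2.83% in S-L. The spans of these transcripts are almost the same on the genome, since CAST-202 has a lower end 147 bases and an upper end 25 bases further along the chromosome than CAST-201.

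The next CAST transcripts had similar levels in both groups. CAST-204, with a shorter span of 78.3 kb, had between 8.25 and 10.1 FPKM in S-H and between 8.21 and 9.04 FPKM in S-L. CAST-205, the shortest by span at 55.4 kb, had between 3.81 and 7.94 FPKM in S-H and between 3.94 and 6.74 FPKM in S-L. For both transcripts the groups overlapped, and their shares were 23.9% and 14.6% on average over the 6 pigs. CAST-203 was at most 0.0593 FPKM in any pig, below the minimum for testing. Without CAST-201 and CAST-202 the gene summed to 14.5 ± 1.91 FPKM in S-H and 13.9 ± 1.25 FPKM in S-L (SD, n = 3 each).

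**Figure D3:**
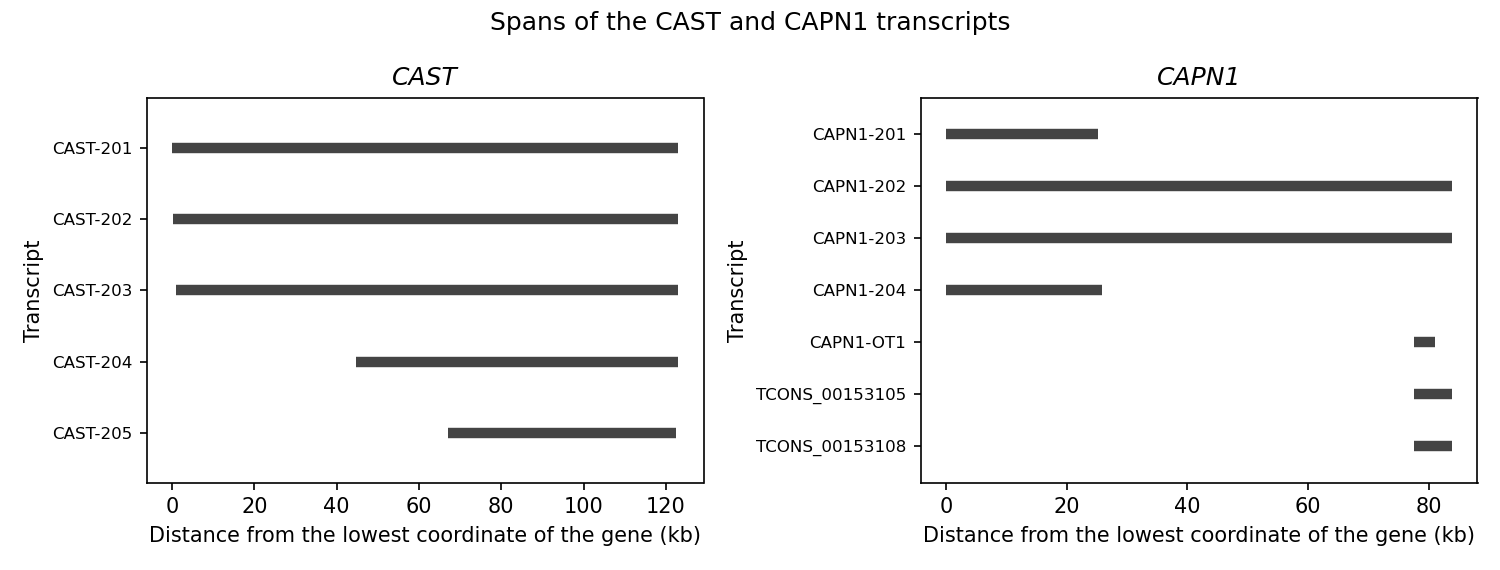
Spans of the CAST and CAPN1 transcripts in kb from the lowest coordinate of each gene, with 1 bar per transcript from its lower to its upper end and introns included. CAST-201, CAST-202 and CAST-203 cover 122.1 to 123.0 kb each, whereas CAPN1-201 and CAPN1-204 span 25.2 and 25.8 kb and 3 assembled transcripts lie at the far end of CAPN1.

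CAPN3, the muscle calpain, lies on chromosome 1 from 128960121 to 129013547 and has 10 Ensembl transcripts. Of these, 4 were listed at 0 in all 6 pigs and 5 were above 0 in every pig. The gene sum was 129.3 FPKM in LW63, 178.6 FPKM in LW70 and 76.3 FPKM in LW119, against 120.9, 114.2 and 138.7 FPKM in LW82, LW88 and LW90. The S-H pigs took both the highest and the lowest value, so the S-L range fell inside that of S-H. The group means were 128.1 ± 51.2 and 124.6 ± 12.7 FPKM (SD, n = 3 each). The log2 difference, S-H minus S-L, was -0.04 on FPKM, -0.23 with size factors and 0.09 with TPM.

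CAPN3-202 was the transcript with the sharpest contrast between the groups. LW63 had 41.2 FPKM, LW70 113.5 FPKM and LW119 45.8 FPKM, whereas the 3 S-L pigs were listed at 0. No fold is given, because a 0 in a file without counts can be a failed estimate. Among all 40336 tested transcripts, 28 had at least 1 FPKM in the 3 pigs of one group and 0 in the 3 pigs of the other, which is 0.0694%, and 16 of these had S-H higher (0.0397%). This contrast is the one by which CAPN3 was chosen. CAPN3-202 made up 31.9% of the gene in LW63, 63.5% in LW70 and 60.1% in LW119.

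CAPN3-204 and CAPN3-210 were higher in S-L. CAPN3-204 had 16.2, 34.1 and 14.3 FPKM in LW63, LW70 and LW119, and 47.0, 71.7 and 52.4 FPKM in LW82, LW88 and LW90. The S-L pigs were all above the S-H pigs, and CAPN3-204 was the leading transcript in each of the 3 S-L pigs. CAPN3-210 had 4.81, 12.9 and 6.45 FPKM in the S-H pigs and 44.6, 14.99 and 45.7 FPKM in the S-L pigs, where LW88 came close to LW70. Their log2 differences, S-H minus S-L, were -1.49 and -2.07 on log2(FPKM + 0.1). Non-overlapping groups with S-H lower were found for 3.31% of all tested transcripts.

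CAPN3-201 and CAPN3-203 varied among pigs without following the groups. CAPN3-201 had 49.3 FPKM in LW63 but 7.21 FPKM in LW70 and 3.79 FPKM in LW119, whereas the S-L pigs stayed between 21.2 and 26.7 FPKM. LW63 was therefore the only pig whose leading CAPN3 transcript was CAPN3-201, at 38.2% of the gene. CAPN3-203 ran from 5.31 to 17.5 FPKM in S-H and from 5.46 to 13.2 FPKM in S-L. CAPN3-207, a shorter form of 37.2 kb, ran from 0.217 to 0.717 FPKM in S-H and from 0.796 to 0.844 FPKM in S-L, a small gap at a low level.

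Several CAPN3 transcripts have the same or nearly the same ends in the table. CAPN3-201 and CAPN3-202 have identical lower and upper ends, as do CAPN3-203 and CAPN3-204. CAPN3-202 and CAPN3-204 differ by 1 base at the lower and 37 bases at the upper end. The pair of CAPN3-201 and CAPN3-202 summed to 90.6, 120.7 and 49.6 FPKM in LW63, LW70 and LW119 and to 21.9, 21.2 and 26.7 FPKM in LW82, LW88 and LW90. CAPN3 without CAPN3-202 summed to 61.2 ± 29.0 FPKM in S-H and 124.6 ± 12.7 FPKM in S-L (SD, n = 3 each).

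**Figure D4:**
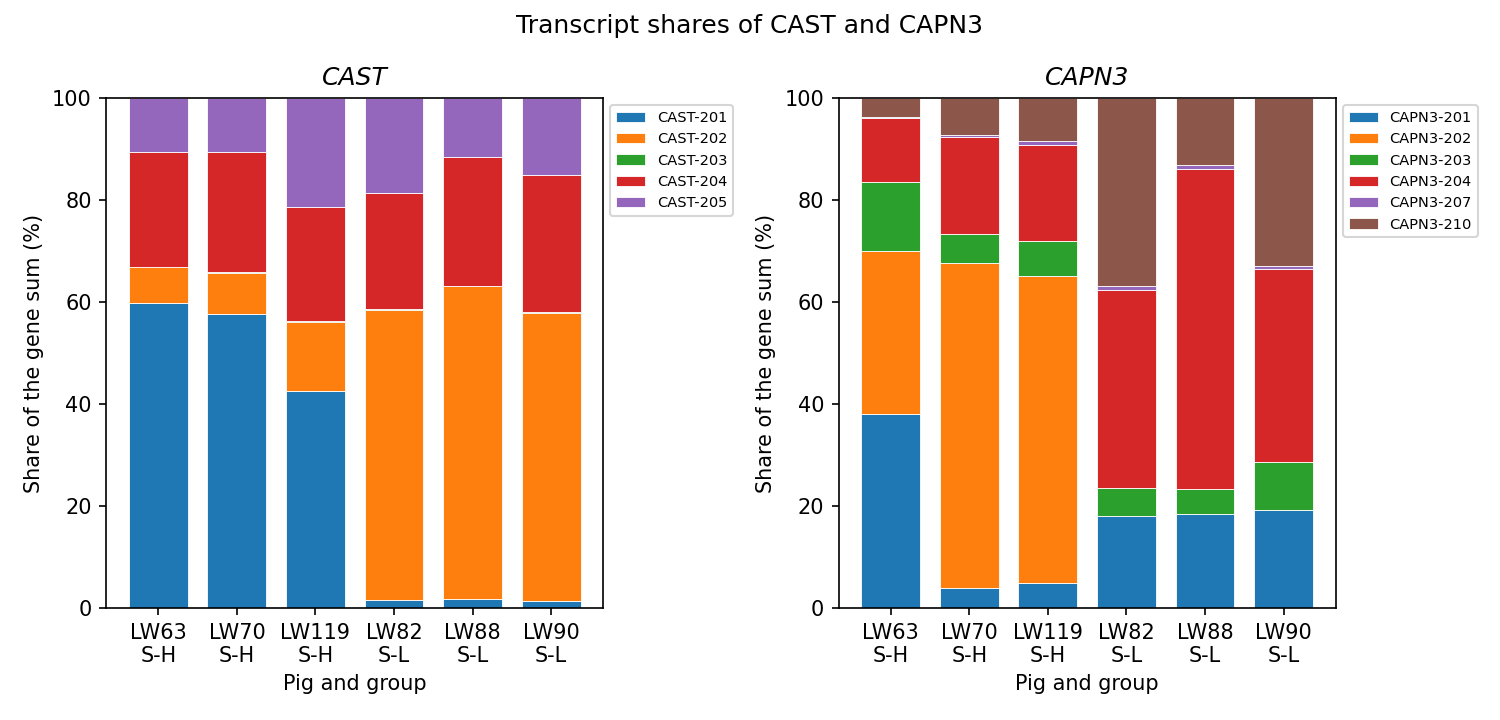
Share of each transcript in the gene sum (percent, stacked to 100) in each of the 6 pigs, for CAST and CAPN3. CAST-201 takes 42.5% to 59.7% in the S-H pigs and CAST-202 takes 56.5% to 61.3% in the S-L pigs, and CAPN3-202 takes 31.9% to 63.5% in the S-H pigs and 0% in the others.

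The leading transcript of CAST was CAST-201 in all 3 S-H pigs and CAST-202 in all 3 S-L pigs. Of the 9179 genes with several transcripts and a mean of at least 1 FPKM, 53 had 1 leading transcript in all S-H pigs and another in all S-L pigs, or 0.577%. CAST was chosen for transcripts that differed between these groups, so its place among the 53 is only a description. CAPN3 was not among these, because LW63 had another leading transcript than LW70 and LW119. The same leading transcript in all 6 pigs was found for 57.1% of these genes, CAPN1 among them. CAPN2 belonged to neither kind, since 1 pig, LW82, stood apart.

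In CAPN2 the leading transcript differed in a single pig. CAPN2-202 had 28.9, 23.6 and 35.3 FPKM in LW63, LW70 and LW119, and 20.1 and 15.6 FPKM in LW88 and LW90, but was listed at 0 in LW82. In LW82 the level was carried by CAPN2-203 instead, with 20.1 FPKM and 97.0% of the gene. CAPN2-203 was otherwise above 0 in LW70 alone, at 2.08 FPKM. Both transcripts span the same positions, from 19758762 to 19851989 on chromosome 10, and their sum in LW82 (20.1 FPKM) was close to that in LW88 (20.1 FPKM).

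The share of CAPN2-202 was 90.1% ± 0.212 in S-H and 58.5% ± 50.6 in S-L (SD, n = 3 each). In the 5 pigs other than LW82 it lay between 87.0% and 90.3%, with the S-H pigs all above LW88 and LW90. The exact two-sided permutation test of the shares gave p = 0.10, or 0.40 after adjustment over the 4 transcripts compared. Without LW82 the difference fell from 31.7 to 2.44 percentage points. CAPN2-201, of 56.2 kb, was at 0 in LW70 and LW82 and reached between 1.47 and 3.21 FPKM elsewhere. CAPN2-OT1, an assembled transcript, had between 0.391 and 0.695 FPKM.

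CAPN1, on chromosome 2 from 6997516 to 7081442, kept 1 leading transcript in every pig. CAPN1-204 had 11.7, 9.34 and 10.3 FPKM in LW63, LW70 and LW119, and 7.42, 7.67 and 9.05 FPKM in LW82, LW88 and LW90. The groups were apart on FPKM, as they were with S-H higher for 8% of all tested transcripts. Divided by size factors, LW90 stood above every S-H pig, so the groups overlapped. The log2 fold change of CAPN1-204 on FPKM was 0.37 with a standard error of 0.23, and the adjusted p in limma was 0.859 (0.158 unadjusted). With size factors it was 0.18 (unadjusted p of 0.504 in limma). As a share of the gene it took 66.5% ± 8.05 in S-H and 68.0% ± 6.77 in S-L (SD, n = 3 each), with p = 0.80 in the exact two-sided permutation test and 1 after adjustment over the 4 transcripts compared. CAPN1-201 was second on average, from 0 FPKM in LW90 to 5.44 FPKM in LW119. Its shares, 21.1% ± 9.46 in S-H and 15.4% ± 14.3 in S-L, overlapped (exact two-sided permutation test, p = 0.60).

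The long CAPN1 transcripts, CAPN1-202 and CAPN1-203, share both ends and were not above 0 in the same pig. CAPN1-202 was above 0 in the 5 pigs other than LW70, at 0.357 to 2.27 FPKM, and CAPN1-203 was above 0 in LW70 alone, at 1.25 FPKM. They reach across several other genes, and 17 transcripts of 8 other gene IDs overlap the span of CAPN1. The 3 assembled CAPN1 transcripts, all at the far end of this span, stayed between 0 and 1.05 FPKM.

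**Figure D5:**
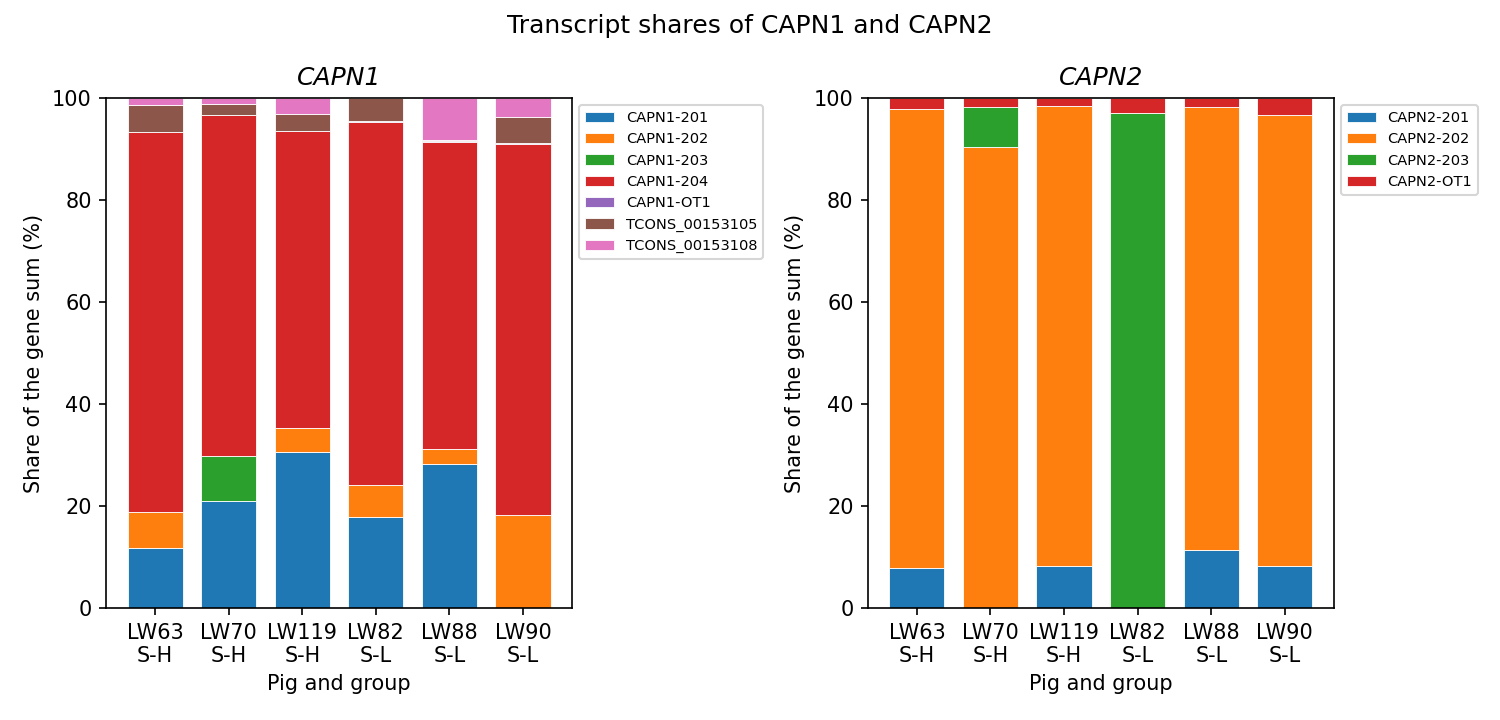
Share of each transcript in the gene sum (percent, stacked to 100) in each of the 6 pigs, for CAPN1 and CAPN2. CAPN1-204 leads in all pigs at 58.3% to 74.4%, and CAPN2-202 leads in 5 pigs while CAPN2-203 takes 97.0% in LW82.

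Among the 14 transcripts of the 5 tested genes, 13 reached the minimum mean of 0.1 FPKM, and none of the 13 passed the thresholds, where 1.25% of all tested transcripts did. None of the 13 had an unadjusted p below 0.05 in limma, where 2248 of all 40336 tested transcripts did. The lowest was 0.0610, for the CAPNS1 transcript. CAPNS1 has only 1 transcript, so the same values gave an unadjusted p of 0.0424 in the limma fit over genes. Levels per length can be set against each other within a pig. CAPN1 stood at 0.487, 0.537 and 0.454 of the CAPN2 level in LW63, LW70 and LW119, and at 0.503, 0.550 and 0.706 in LW82, LW88 and LW90. The groups overlapped (exact two-sided permutation test, p = 0.20). CAPNS1 was between 0.186 and 0.233 of the summed CAPN1 and CAPN2 level in all 6 pigs, with means of 0.208 in S-H and 0.206 in S-L, and p was 1 in the exact permutation test (two-sided).

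The inhibitor was set against its targets in the same way, as a description. CAST was 0.937, 0.907 and 0.652 of the summed CAPN1 and CAPN2 level in LW63, LW70 and LW119, and 1.16, 0.946 and 1.12 in LW82, LW88 and LW90. Every S-L pig was above every S-H pig, although LW88 and LW63 were almost level. The lowest ratio was that of LW119, the pig with the highest CAPN1, CAPN2 and CAPNS1. CAPN3 was between 1.34 and 4.61 times that sum, lowest again in LW119. Against CAPN2 alone, CAST was 0.948 to 1.39 in S-H and 1.47 to 1.91 in S-L, so the groups were apart. Against CAPN1 alone it was 2.09 to 2.86 in S-H and 2.67 to 3.45 in S-L, and the groups overlapped. CAST was chosen for a gene sum that did not differ between the groups, so its ratios were not tested.

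Few of the other calpains were expressed in this muscle. Of 10 listed, 9 were in the table, 2 (CAPN13 and CAPN14) were listed at 0 in all pigs and only 3 reached the minimum for testing. CAPN6, which lacks the active-site cysteine of the family, varied most, from 2.81 FPKM in LW70 to 14.2 FPKM in LW119. CAPN10 had 4.34, 3.995 and 3.48 FPKM in LW63, LW70 and LW119 and 2.71, 2.80 and 2.72 FPKM in LW82, LW88 and LW90. The groups were apart on FPKM, as they were with S-H higher for 11.2% of all tested genes. Divided by size factors, LW90 stood above LW119, so the groups overlapped. The log2 fold change of CAPN10 on FPKM was 0.50 with a standard error of 0.24, and the adjusted p in limma was 0.676 (0.0691 unadjusted). CAPN15 had 1.48 ± 0.294 FPKM in S-H and 1.34 ± 0.412 FPKM in S-L (SD, n = 3 each). None of the 3 passed the thresholds, where 1.41% of all tested genes did. None had an unadjusted p below 0.05 in limma, where 1404 of all 18894 tested genes did.

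Known calpain substrates and CAPN3 partners, such as proteins of the Z-disc and the costamere, showed no call among 27 tested genes. Over all tested genes 1.41% were called. Of the 27, 14 had a positive log2 fold change, and the median was 0.06 against 0.18 over all tested genes. In limma 2 of the 27 had an unadjusted p below 0.05, as did 1404 of all 18894 tested genes. VIM, which encodes the filament protein vimentin, had 160.9 ± 36.4 FPKM in S-H and 89.9 ± 7.98 FPKM in S-L (SD, n = 3 each), and was named after its values were seen. The most abundant were DES, which encodes desmin, at 3721 ± 1307 FPKM in S-H and 2091 ± 608 FPKM in S-L (SD, n = 3 each), and the fast troponin genes TNNT3 and TNNI2. TNNT3 had 2561 ± 817 FPKM in S-H and 3603 ± 955 FPKM in S-L. TNNI2 ran from 47.7 to 720.4 FPKM in S-H and from 30.6 to 4451 FPKM in S-L, with LW82 below all other pigs.

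The lysosomal cathepsins, other proteases studied in ageing meat, were listed together with legumain (LGMN). The list held 3 calls among 11 tested genes, all higher in S-H, where 0.868% of all tested genes were called in that direction. CTSL, an endopeptidase, had 7.76, 3.39 and 9.58 FPKM in LW63, LW70 and LW119 and 1.33, 3.06 and 1.07 FPKM in LW82, LW88 and LW90. Its log2 fold change was 1.89 with a standard error of 0.48, and the adjusted p in limma was 0.519 (0.00341 unadjusted). CTSS, typical of antigen-presenting cells, had 19.7 ± 1.74 FPKM in S-H and 9.97 ± 2.77 FPKM in S-L, and CTSZ had 39.0 ± 13.1 and 18.2 ± 5.49 FPKM (SD, n = 3 each). With size factors 1 of the 3 calls was left. With 1 pig left out between 0 and 4 genes of the list were called, with 0 without LW63, LW82 or LW90 and 1 without LW119. The most abundant cathepsin genes were CTSD, at 52.9 ± 18.4 FPKM in S-H and 53.5 ± 27.2 FPKM in S-L (SD, n = 3 each), CTSZ and CTSF. The leukocyte markers, 4 of 4 tested and none at 0, summed to between 7.45 and 29.8 FPKM in S-H and between 10.9 and 12.6 FPKM in S-L, and their part in these values was not tested.

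No gene passed among the 13 tested genes of a list of cystatins, serpins, A2M and TIMP genes. The 12 tested caspases and their regulators held no called gene either, where 1.41% of all tested genes were called. Of all 18894 tested genes, 1404 had an unadjusted p below 0.05 in limma, against 1 and 0 in these lists. Their median log2 fold changes were 0.57 and 0.35, against 0.18 over all tested genes. CST3, which encodes the secreted cathepsin inhibitor cystatin C, was the most abundant of the cystatin and serpin list at 131.2 ± 26.0 FPKM in S-H and 106.9 ± 11.6 FPKM in S-L. CYCS, the gene of cytochrome c, led the caspase list at 179.8 ± 73.7 FPKM in S-H and 131.0 ± 35.9 FPKM in S-L (SD, n = 3 each).

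Across the 6 pigs the genes of the classical calpain dimers followed each other, as a description without a test. On log2(FPKM + 0.1), Pearson's r was 0.906 between CAPN2 and CAPNS1, 0.895 between CAPN1 and CAPNS1 and 0.887 between CAPN1 and CAPN2. CAPN3 had an r of -0.535 with CAPN2 and of -0.0174 with CAST. These values come from the same 6 libraries and carry any difference in scaling between them. Among 9326 other genes with a symbol and a mean of at least 1 FPKM, the pattern most like CAPN2 was that of CDK2AP2 (r of 0.9996), then PTGFRN and NRROS. The nearest to CAPN1 were RALA, S100A12 and TLCD1, to CAPN3 HBS1L, C15orf61 and ANKFY1, and to CAST PDE3B, GLB1 and CLMP, with r from 0.982 to 0.996 over 6 pigs. Of the 9326 genes, an r of at least 0.95 was reached by 137 with CAPN2, 32 with CAPN1, 31 with CAST and 21 with CAPN3. How many would reach it by chance over 6 pigs was not tested.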

How the data were processed

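The authors filtered the reads, aligned them with Hisat2 to the Sscrofa11.1 assembly and quantified transcripts with StringTie, with versions not given in the sources used here. The deposited values are FPKM for each transcript and pig, with 1 library per pig. The 21104 Ensembl transcripts without a symbol appeared from their values to be in TPM, and were multiplied by 1 factor per pig, from 0.639 to 0.847. This step touches none of the 29 rows described. Read counts per transcript were not used here, so the number of reads behind a single value is unknown and precision is the spread between 3 pigs.

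Gene sums and transcripts were kept from a mean of 0.1 FPKM upward and tested with limma 3.58.1 (R 4.3.3) on log2(FPKM + 0.1) with a variance trend, a scale that understates the change of weakly expressed genes. Shares and ratios were compared by exact permutation of the pigs (scipy 1.17.1, Python 3.11.15). The fit was tested on simulated data. The members and gene lists were chosen with earlier results of these data known. Transcripts were named when they averaged 10% of their gene or 1 FPKM or passed the thresholds, and CAST-203, CAPN3-207, CAPN1-202, CAPN1-203 and CAPN2-OT1 were named after their values were seen. List genes were named when they passed, or as the 3 most abundant, and other genes by the highest r. List genes were matched by symbol (106), by gene ID (4) or by a reciprocal overlap of at least 50% with RefSeq (1), and MYH1, MYH2, MYH4, MB, TTN, CAPNS2, CTSK, CASP2, BAX, BCL2 and S100B were not matched. Summed FPKM of the endothelium, smooth muscle, fibroblast and Schwann cell markers overlapped between the groups, as did those of the slow fibre and muscle fibre markers. The alternatives were other pseudocounts, minima and scalings, no trend, Ensembl transcripts only, adjusted p and each pig left out.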

Additional observations from a re-analysis of the deposited data

How the results depend on the processing

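The count of 0 calls among the 5 tested genes and among their 13 tested transcripts was the same under every alternative run. The number of genes called moved from 267 to 106 with a pseudocount of 1, to 137 with a minimum of 1 FPKM and to 0 with an adjusted p below 0.05, and lay between 172 (without LW63) and 350 with 1 pig left out. The number of transcripts called moved from 503 to 227 with a pseudocount of 1 and to 181 with a minimum of 1 FPKM, and lay between 513 and 648 with 1 pig left out. With size factors the log2 fold changes of CAST, CAST-204 and CAST-205 turned to -0.012, -0.13 and -0.17. With 1 pig left out, CAPN3 lay between -0.32 and 0.29, CAPN2 between 0.50 and 0.80, CAST-201 between 4.83 and 5.21 and CAST-202 between -2.69 and -2.30 on the log2 scale. No paired analysis was possible because S-H and S-L hold different animals whose numbers form no pairs. Transcripts that share their ends, and genes under other genes, limit what a single transcript's value shows, and the number of reads behind it is unknown. The restriction to Ensembl transcripts was run for transcript shares but not for the log2 fold changes of single transcripts.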
